A study of Mus musculus with 8 samples.

Results

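The Hox genes of the 4 clusters were followed in whole fetal ovaries. Members were chosen by name alone, as every row of the count tables whose symbol was *Hox* followed by a cluster letter (a to d) and a number, and 39 of the 25239 gene symbols met this rule. RNA-Seq had been run on ovaries of female C57BL/6 embryos at E14.5, the only stage sampled, with 4 libraries per genotype. Controls carried the floxed receptor gene alone (*Bmpr1a* fl/fl), and the mutants, called *Bmpr1a*-cKO, carried it with 1 Cre allele (*Bmpr1a* fl/fl; *Oct4*-Cre Cre/WT). Each library held the pooled ovaries of 2 embryos, from 8 embryos of each genotype across 6 litters, and the litter of each pool is not given. Each dam was dosed at 9.5 dpc, at 10.5 dpc and again at 11.5 dpc with 4-hydroxytamoxifen (4OHT, 1 mg) plus progesterone (0.5 mg), so controls met both drugs as well. The Cre was driven from *Oct4*, a germ cell gene, whereas the RNA came from the entire ovary, with its somatic cells. In such bulk samples, fewer cells of a type and less RNA per cell cannot be told apart.

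Hox genes encode homeodomain transcription factors that specify position along the body axis. They lie in clusters in which gene order follows the order of expression domains, from anterior (low paralog numbers) to posterior (high paralog numbers), and genes with the same number in different clusters are paralogs that descend from a common ancestral gene. HOX proteins bind DNA together with TALE-class cofactors of the PBX and MEIS families, while CDX factors, retinoic acid and GDF11 help to activate the clusters, and Polycomb complexes keep unused Hox genes silent. In the urogenital system, posterior Hox genes pattern the reproductive tract and kidney.

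On mm10, *HoxA* lay on chromosome 6 with 11 genes, *HoxB* occupied chr11:96194316-96368256 with 10, *HoxC* chr15:102921103-103036852 with 9, and *HoxD* chr2:74668310-74765142 with 9. Paralog groups 1 to 3 are called anterior here, groups 4 to 8 central and groups 9 to 13 posterior. The sequence upstream of *Hoxd1* is shown because *Hoxd1*, though too low for the filter, was separated between the genotypes (described below). It covers chr2:74762730-74762979 on the plus strand (RefSeq table, GRCm38.p6), and capitals mark GGCGCC, a GC-rich hexamer that SMAD proteins of the BMP pathway can bind.
Hoxd1 upstream: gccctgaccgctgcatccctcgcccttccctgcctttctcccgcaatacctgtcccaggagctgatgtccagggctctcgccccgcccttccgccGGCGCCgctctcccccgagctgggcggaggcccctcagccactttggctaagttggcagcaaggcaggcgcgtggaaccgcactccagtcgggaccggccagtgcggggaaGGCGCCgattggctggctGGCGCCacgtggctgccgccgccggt

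The 3 hexamers began at positions -155, -44 and -26 from the start site of *Hoxd1*. The same 250 bases held the annotated start of *Haglr* at 74762896, a noncoding gene read in the opposite direction from 84 bp away, and part of its exon. Of 32851 promoter windows of 300 bases in the same table (250 before and 50 after the start), 11.9% held GGCGCC at least once and 0.356% held it 3 times or more. The *Hoxd1* window had a GC content of 69.7%, against a median of 52.7% over all windows, and GC-rich windows hold GC-rich words more often by composition.

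The stretch upstream of *Hoxa5* is given as well, the tested member nearest to the significance threshold. It covers chr6:52204588-52204837 on the minus strand. These 250 bases held none of the 5 motifs searched, each on both strands, but the 50 bases after the start, not printed here, held AGGTCA, so the full window of *Hoxa5* is among those counted for that word below. The SMAD box was CAGAC. The word GGCGCC was searched as above. The core hexamer of retinoic acid receptor sites was AGGTCA, the CDX site was TTTATG, and the TATA box was TATAAA.
Hoxa5 upstream: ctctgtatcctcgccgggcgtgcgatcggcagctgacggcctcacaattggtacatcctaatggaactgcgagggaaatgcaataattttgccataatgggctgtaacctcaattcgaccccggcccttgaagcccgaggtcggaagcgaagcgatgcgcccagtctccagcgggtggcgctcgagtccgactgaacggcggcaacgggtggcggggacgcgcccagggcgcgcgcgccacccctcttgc

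Promoter windows were in the table for 22 of the 39 Hox genes, some with more than 1 start, giving 24 windows. CAGAC lay in 9 of these 24 windows (37.5%, against 49.6% of all windows). GGCGCC was present in 5 (20.8%, against 11.9%), AGGTCA in 7 (29.2%, against 16.3%), TTTATG in 5 (20.8%, against 11.9%) and TATAAA in 4 (16.7%, against 13.6%). None of these words contains another. These matches are descriptions of letters in the windows and were not tested.

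The clusters also carry microRNAs, and the mature 5p forms are shown with the seed (bases 2 to 8) in capitals because they fall into groups by seed. The miR-10 pair and the miR-196 pair each share a seed, and miR-196 is known to cleave *Hoxb8* mRNA.
miR-10a-5p: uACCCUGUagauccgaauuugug
miR-10b-5p: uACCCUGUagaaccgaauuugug
miR-196a-5p: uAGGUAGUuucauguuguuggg
miR-196b-5p: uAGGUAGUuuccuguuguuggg
miR-615-5p: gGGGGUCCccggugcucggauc

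These libraries count reads over the microRNA genes and not the mature microRNAs. *Mir196a-1* (chr11:96265164-96265265) had 11, 21, 12 and 17 counts in control libraries 1 to 4 and 10, 14, 8 and 9 in *Bmpr1a*-cKO libraries 1 to 4. These ranges overlapped (Log2FC -0.45, SE 0.32, FDR 0.319). *Mir615* had at most 6 counts in any library, *Mir10a*, *Mir10b* and *Mir196a-2* at most 3, and *Mir196b* was at 0 in all 8.

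Library totals ran from 8562961 to 15365052 counts, of which 1823 to 3656 per library fell on Hox genes. Levels between genes are compared as RPKM, which is CPM (counts relative to the TMM-scaled library size) divided by the merged exon length in kb. *Bmpr1a* itself, the targeted gene, stood at 199, 236, 220 and 215 CPM in control libraries and 185, 194, 190 and 209 CPM in *Bmpr1a*-cKO libraries, and these ranges overlapped (Log2FC -0.16, SE 0.06, FDR 0.0692). The authors report that germ cells of mutants lost BMPR1A staining while the somatic cells around them kept it. They also report lower *Bmpr1a* in mutant ovaries by qRT-PCR. Over all genes tested, 12.5% were lower and 17.3% higher in *Bmpr1a*-cKO ovaries at an FDR below 0.05. Among the markers checked, 7 of 8 pregranulosa genes, led by the granulosa regulator *Foxl2*, were lower at that FDR. Of these genes, 1 was a DEG (*Foxl2*). Their summed level ran from 1332 to 1601 CPM across controls and from 1128 to 1346 CPM across mutants, whereas none of 7 stromal markers passed. Of 4 macrophage markers, 3 were higher (2 of them DEGs), and their summed level ran from 22.7 to 27.6 CPM across controls and from 30.5 to 37.6 CPM across mutants. Of 8 germ cell markers, 3 were higher and 1 lower, and the summed level ran from 681 to 895 CPM across controls and from 725 to 1150 CPM across mutants. Defining genes of the ovary, from both lists, were thus present in every library.

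The ovary expressed a broad middle stretch of each cluster and left the posterior ends near 0. The filter on low counts kept 27 of the 39 genes, namely 8 of 11 in *HoxA*, 7 of 10 in *HoxB*, 6 of 9 in *HoxC* and 6 of 9 in *HoxD*. By position, 5 of 8 anterior, 14 of 15 central and 8 of 16 posterior genes were kept. The most posterior genes kept were *Hoxa10*, *Hoxb9*, *Hoxc10* and *Hoxd11*, and none of the 6 genes of paralog groups 12 and 13 was kept.

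**Figure D1:**
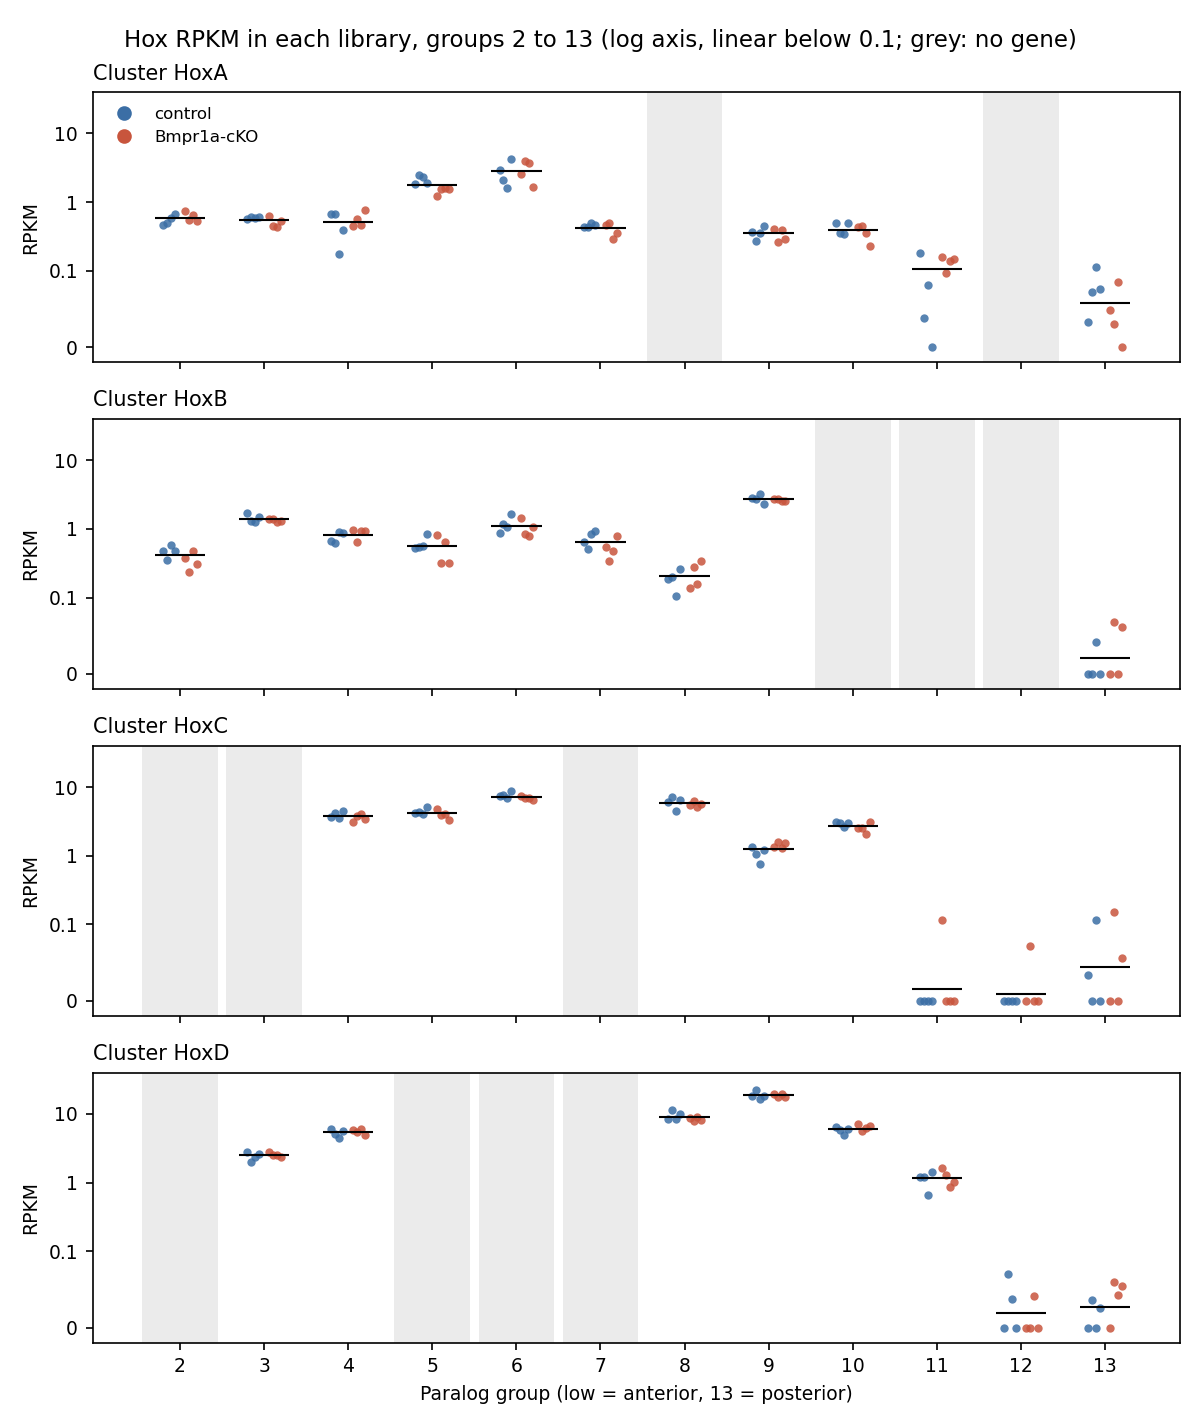
RPKM (log axis, linear below 0.1) of the Hox genes of paralog groups 2 to 13 in the 4 control (blue) and 4 *Bmpr1a*-cKO (red) libraries, by paralog group within each cluster, with the mean of all 8 as a line and grey where a cluster has no gene. *Hoxd9* stood highest at 18.7 RPKM, and levels dropped to near 0 beyond group 10 in *HoxA* and *HoxC* and beyond group 11 in *HoxD*.

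*Hoxd9*, a posterior gene that acts in axial and limb patterning, had the highest level. Its RPKM was 18.2, 22.4, 16.6 and 18.4 in control libraries and 19.4, 17.5, 19.7 and 17.4 in *Bmpr1a*-cKO libraries. Every library exceeded the highest value of the second gene, *Hoxd8*, the neighbour of *Hoxd9* in the cluster. The RPKM of *Hoxd8* was 8.38, 11.4, 8.49 and 10.1 in control libraries and 8.64, 7.90, 9.07 and 8.27 in *Bmpr1a*-cKO libraries.

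*Hoxc6*, a central gene used in thoracic identity, came next. It had an RPKM of 7.37, 7.57, 6.88 and 8.61 in control libraries and 7.37, 6.88, 6.90 and 6.48 in *Bmpr1a*-cKO libraries. The genotypes overlapped, as they did for all 6 highest genes. *Hoxd10*, on the posterior side of *Hoxd9*, had an RPKM of 6.51, 5.75, 4.95 and 6.04 in control libraries and 7.08, 5.64, 6.16 and 6.68 in *Bmpr1a*-cKO libraries. *Hoxc8*, a central gene that patterns the thoracic level, had 6.12, 7.28, 4.43 and 6.48 RPKM in control libraries and 5.55, 6.22, 5.21 and 5.73 RPKM in *Bmpr1a*-cKO libraries. *Hoxd4*, a paralog group 4 gene of the neck and hindbrain domain, had 5.96, 5.16, 4.51 and 5.71 RPKM in control libraries and 5.82, 5.37, 6.03 and 4.92 RPKM in *Bmpr1a*-cKO libraries. These last 3 genes overlapped each other, so their order was not resolved.

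Below these came *Hoxc5* at 4.21 ± 0.553 RPKM (mean ± SD, n = 8) and *Hoxc4* at 3.79 ± 0.426 RPKM. *Hoxa6*, *Hoxc10*, *Hoxb9* and *Hoxd3* followed, with means of 2.84, 2.75, 2.71 and 2.48 RPKM. The 15 other genes kept had means from 0.349 RPKM (*Hoxa9*) to 1.80 RPKM (*Hoxa5*). Apart from *Hoxd9* and *Hoxd8*, every gene in this order overlapped the next. The order depends on gene length, since merged exons count long untranslated and alternative exons. Per coding length *Hoxd9*, *Hoxd8* and *Hoxc6* were still the 3 highest.

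Overlapping annotation limits single values. In GENCODE vM21, the spans of 11 members overlap that of another member on the same strand, for example *Hoxa3* with *Hoxa4*, *Hoxa5* and *Hoxa6*, and *Hoxc5* with *Hoxc6*, *Hoxc8*, *Hoxc9* and *Hoxc10*. A further set of 14 members, in part the same, overlaps a gene on the opposite strand. The libraries were strand-specific, but neither the annotation of the counting nor its use of strand is given in the sources used here. These overlaps and the exon lengths may therefore differ from those of the counting.

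*HoxD* held the largest share of Hox counts, 51.02% ± 1.48 (mean ± SD, n = 8), then *HoxC* with 30.9% ± 1.11, *HoxB* with 10.3% ± 0.924 and *HoxA* with 7.74% ± 0.459. The ranges of *HoxD* (49.0% to 53.1%), *HoxC* (29.4% to 32.4%), *HoxB* (9.01% to 12.1%) and *HoxA* (7.04% to 8.44%) did not meet. By position, central genes held 53.4% ± 1.52, posterior genes 35.6% ± 1.45 and anterior genes 10.98% ± 0.994. Taken by counts, the top 6 genes made up 60.4% of the family. Among paralog groups, group 9 held the most (24.6% ± 1.23) and group 8 came next (19.8% ± 1.46).

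**Figure D2:**
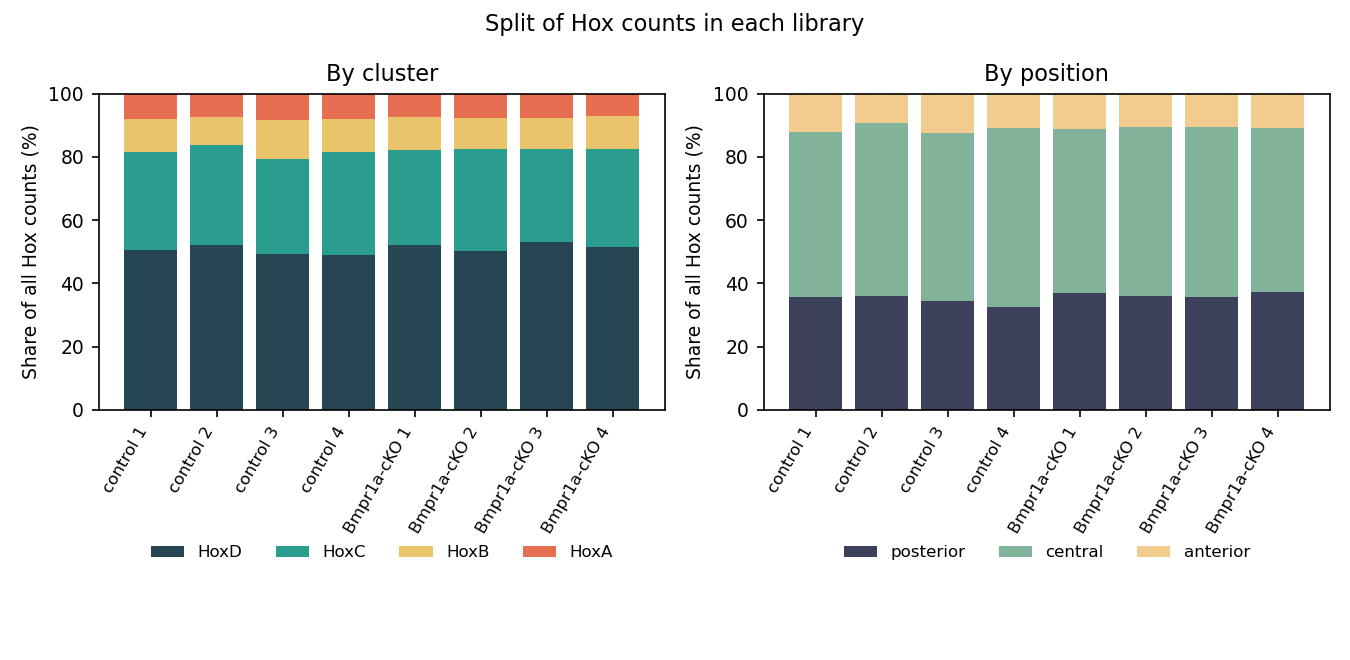
Share of all Hox counts (%, stacked bars) in each library, by cluster (left) and by position in the cluster (right). *HoxD* held 49.0% to 53.1% in every library, and the shares of each cluster overlapped between genotypes.

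The split between clusters overlapped between genotypes. The share of *HoxD* was 50.3% ± 1.44 in controls and 51.8% ± 1.24 in mutants (mean ± SD, n = 4 each). *HoxA* held 7.99% ± 0.433 and 7.49% ± 0.376. Posterior genes made up 34.7% ± 1.45 in controls and 36.5% ± 0.684 in mutants. All Hox genes together reached 217 ± 17.2 CPM in controls and 206 ± 8.95 CPM in mutants.

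Of the 12 genes that were not kept, 7 had at most 3 counts in every library, the limit used here for a gene that is not detectable at this depth. These were *Hoxa13*, *Hoxb1*, *Hoxb13*, *Hoxc11*, *Hoxc12*, *Hoxd12* and *Hoxd13*. A limit of 3 counts corresponds to 0.189 to 0.357 CPM, depending on the library. *Hoxb1*, a hindbrain gene, had 1 count in 1 control library and 0 in the other 7. *Hoxc12* likewise had 1 count in all, and *Hoxc11* had 2. *Hoxa11* and *Hoxc13* reached 5 counts at most. *Hoxa11* and *Hoxa13* are known for their roles in the uterus, limb and lower urogenital tract.

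The 2 excluded genes nearest to the filter were *Hoxd1* and *Hoxb8*, and the 2 included genes nearest to it were *Hoxa4* and *Hoxb7*. *Hoxb8*, the only central gene not kept, had 6, 6, 3 and 11 counts in control libraries and 3, 10, 4 and 13 in *Bmpr1a*-cKO libraries. *Hoxa4* had 13, 12, 3 and 10 counts in control libraries and 6, 12, 7 and 18 in *Bmpr1a*-cKO libraries. *Hoxb7* had 12, 9, 14 and 23 counts in control libraries and 7, 7, 7 and 18 in *Bmpr1a*-cKO libraries. The genotypes overlapped for all of these but *Hoxd1*, which is described below.

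Between genotypes, 0 of the 27 Hox genes tested was a DEG, meaning an absolute Log2FC above 0.5 with an FDR below 0.05 in edgeR. Over all 14249 genes tested, 6.11% were DEGs higher and 4.06% DEGs lower in *Bmpr1a*-cKO ovaries. Without the fold threshold the Hox count was again 0, where 17.3% of all genes were higher and 12.5% lower at an FDR below 0.05. At an unadjusted p below 0.05, 1 Hox gene passed, against 39.8% of all genes. Of the 27, 19 averaged below 10 CPM, and genes of few counts are called less often at the same fold. The shares over all genes were not matched for level. DESeq2 and limma-voom also called 0 at an FDR below 0.05, and the likelihood ratio test of edgeR called 1. That gene was *Hoxa5* in each case.

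Fold changes of the 27 genes ran from -0.49 (*Hoxa5*) to 0.39 (*Hoxc9*) on the log2 scale. The median was -0.13, with 18 genes lower and 9 higher, and the median over all genes tested was -0.004. This direction depended on the scaling. Scaling to germ cell markers moved the median of all genes to -0.21 and left 25 Hox genes lower, while scaling to pregranulosa and stromal markers moved it to 0.21 and left 6 lower. Relative to all genes, the Hox median was lower by 0.13 with TMM and stood at -0.14 and -0.12 with these 2 scalings.

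**Figure D3:**
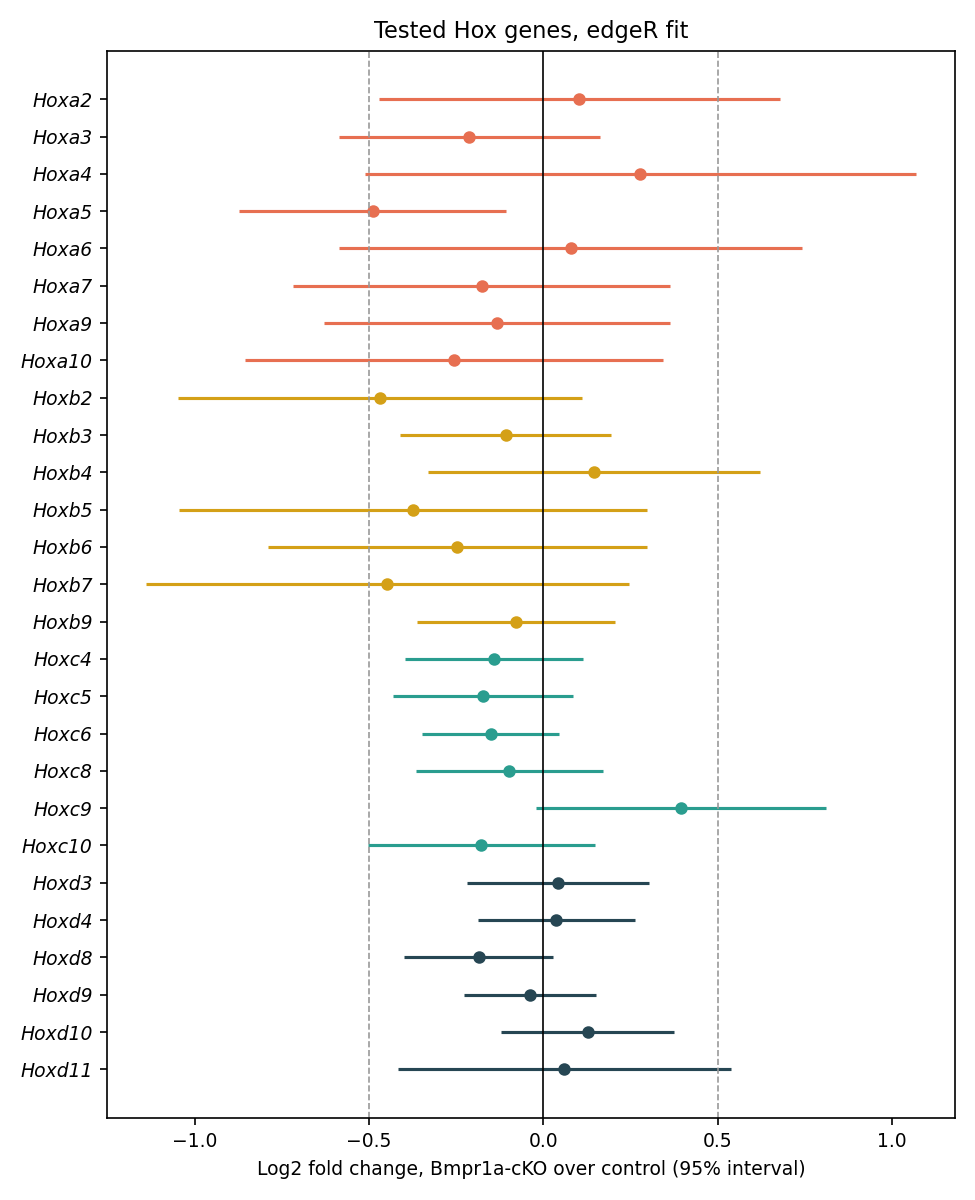
Log2FC of the 27 tested Hox genes in *Bmpr1a*-cKO over control ovaries from the edgeR fit, with 95% intervals, coloured by cluster; dashed lines mark the fold threshold of 0.5. The interval of *Hoxa5* alone left out 0, and those of *Hoxd9* and *Hoxc6* were among the narrowest.

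The intervals show how large a change in the whole ovary the fit with TMM scaling allows. They leave out the choice of scaling, and with other scalings some fold changes lay outside them, as listed at the end. A change within the germ cells alone is not bounded by them. The 95% interval lay within a log2 change of 1 in either direction for 23 of the 27 genes, and within 0.5 for 11. For *Hoxd9* it ran from -0.23 to 0.15 around -0.04 (FDR 0.789). For *Hoxd8* it ran from -0.40 to 0.03 around -0.19 (FDR 0.183), and for *Hoxc6* from -0.35 to 0.05 around -0.15 (FDR 0.247). *Hoxb7*, with few counts, had the lowest bound, -1.14, and *Hoxa4* the highest, 1.07. By cluster, 5 of 8 genes were lower in *HoxA* (median -0.15), 6 of 7 in *HoxB* (median -0.25), 5 of 6 in *HoxC* (median -0.15) and 2 of 6 in *HoxD* (median 0.04).

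*Hoxa5*, a central gene best known for lung and thoracic development, was the only gene tested in the family whose libraries did not overlap. It had 3.45, 4.60, 4.30 and 3.53 CPM in control libraries and 2.26, 2.90, 3.03 and 2.93 CPM in *Bmpr1a*-cKO libraries. The means were 3.97 ± 0.569 and 2.78 ± 0.350 CPM (SD, n = 4 each). All 4 *Bmpr1a*-cKO libraries were thus below the lowest control, a pattern seen in 11.7% of all genes tested, while 16.1% were separated in the other direction. The Log2FC was -0.49 (SE 0.18), with an edgeR FDR of 0.0513, just outside the threshold. The FDR was 0.033 to 0.04995 under 8 alternatives of scaling, filter, test or block. It was 0.0619 with no filter, 0.0599 with limma-voom, 0.0983 with DESeq2, 0.0569 and 0.293 with scaling to germ cell or to pregranulosa and stromal markers, and 0.0546 to 0.113 with a library left out. Its annotated span overlaps that of *Hoxa3*, and the annotation and strand setting of the counting are not given. *Hoxa3* had a Log2FC of -0.21 (SE 0.18, FDR 0.399).

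*Hoxc9*, a posterior gene of the thoracic domain, had the highest Log2FC. It had 3.28, 2.56, 1.87 and 2.90 CPM in control libraries and 3.22, 3.86, 3.14 and 3.75 CPM in *Bmpr1a*-cKO libraries. The highest control exceeded 2 of the *Bmpr1a*-cKO libraries, and the difference did not pass (Log2FC 0.39, SE 0.20, FDR 0.146).

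*Hoxd1*, the most anterior gene of *HoxD*, fell below the filter and had lower counts in mutants. It had 8, 8, 16 and 15 counts in control libraries 1 to 4 and 0, 1, 3 and 6 counts in *Bmpr1a*-cKO libraries 1 to 4. As levels, these were 0.657, 0.708, 1.497 and 0.946 CPM against 0, 0.0743, 0.314 and 0.409 CPM. All 4 *Bmpr1a*-cKO libraries lay below all 4 controls (two-sided exact permutation test, p = 0.0286, which is as low as 4 against 4 libraries can reach). *Hoxd1* was named here after its values were seen.

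With no filter on low counts, across 20169 genes, the Log2FC of *Hoxd1* was -2.09 (SE 0.53) and its FDR was 0.00466. In that fit 9.46% of all genes were lower at an FDR below 0.05. *Hoxd1* was the only Hox gene that passed there. In all, controls had 47 counts and mutants 10, so the size of the fold is loosely known, with a 95% interval from -3.17 to -0.999.

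*Haglr*, the noncoding gene whose start lies 84 bp from that of *Hoxd1* on the other strand and within the sequence printed above, showed similar values. It had 10, 7, 9 and 10 counts in control libraries and 3, 2, 0 and 3 counts in *Bmpr1a*-cKO libraries. These did not overlap either (Log2FC -2.001, SE 0.54, FDR 0.00748 with no filter). *Haglr*, 1 of 17 noncoding genes listed, was also named after its values were seen. The annotated spans of the 2 genes do not overlap.

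**Figure D4:**
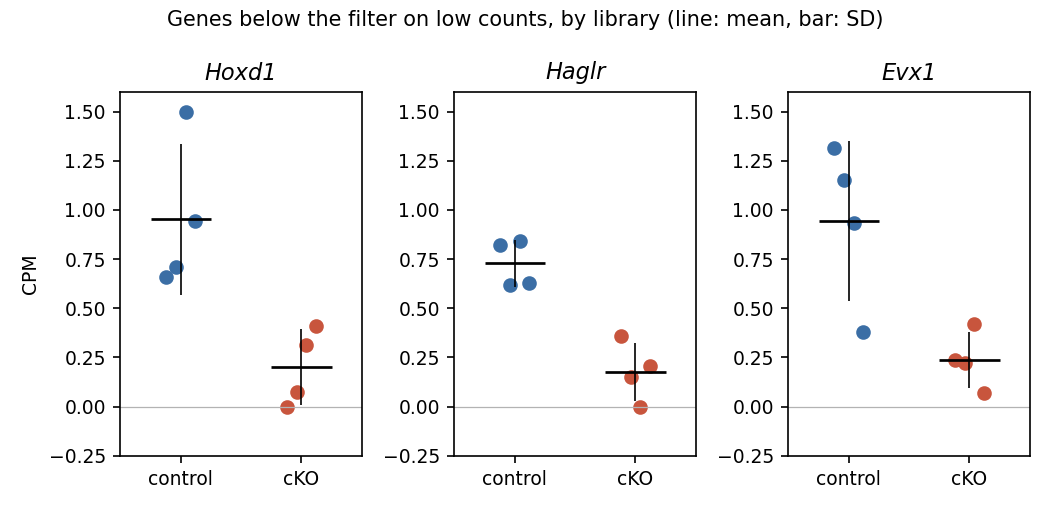
CPM in each library (points), with the mean (line) and SD (bar) per genotype (n = 4 each), of *Hoxd1*, *Haglr* and *Evx1*, all below the filter on low counts. *Hoxd1* and *Haglr* did not overlap between genotypes, and *Evx1* did.

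Of the 17 noncoding genes of the clusters that the files list, 1 was tested (*Mir196a-1*) and 11 had at most 3 counts in every library. *Hotair*, which lies in *HoxC*, was at 0 in all 8 libraries, and *Hottip*, beyond *Hoxa13*, had 1 count in all. Both lie beside posterior genes that were themselves not detectable.

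Genes that work with or on the Hox clusters were read against all genes tested, of which 17.3% were higher and 12.5% lower at an FDR below 0.05. Of 9 TALE cofactors tested, 1 was higher and 2 were lower, and none was a DEG. *Pbx2* was 131, 131, 141 and 122 CPM in control libraries and 144, 149, 150 and 153 CPM in *Bmpr1a*-cKO libraries, with no overlap (Log2FC 0.19, SE 0.06, FDR 0.0243). *Pbx3* fell by 0.28 (SE 0.07, FDR 0.00438) and *Meis3* fell by 0.30 (SE 0.10, FDR 0.0313), again with no overlap. The call of *Pbx3* held with any library left out, and those of *Pbx2* and *Meis3* did not. The median of the 9 was -0.07. None of these 3 calls held with germ cell marker scaling, under which *Pbx2* also turned sign. The calls of *Pbx3* and *Meis3* were lost with pregranulosa and stromal marker scaling too, and that of *Pbx2* with upper-quartile or library size scaling.

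Of 30 upstream regulators and chromatin genes, 29 were tested, with 5 higher and 5 lower (median 0.01), shares near those of all genes (17.3% and 12.5%). *Cdx2*, a caudal-type homeobox factor that activates central and posterior Hox genes in the early embryo, had the largest change. It had 14.7, 17.4, 25.4 and 11.3 CPM in control libraries and 2.86, 3.34, 4.39 and 2.999 CPM in *Bmpr1a*-cKO libraries. Every mutant library was below every control (Log2FC -2.33, SE 0.23, FDR 3.95e-06). Of its paralogs, *Cdx1* had 1.33 to 2.81 CPM over the 8 libraries, overlapped between genotypes and did not pass (Log2FC -0.39, SE 0.28, FDR 0.318). *Cdx4* was at 0 in all 8 libraries.

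*Cyp26b1*, an enzyme that degrades retinoic acid, was the other DEG of this list. It had 4.93, 3.98, 4.12 and 3.91 CPM in control libraries and 3.22, 2.08, 3.14 and 2.79 CPM in *Bmpr1a*-cKO libraries, without overlap (Log2FC -0.61, SE 0.18, FDR 0.0205). The call was lost without control 1 (FDR 0.0708) or without *Bmpr1a*-cKO 2 (FDR 0.0817), and with pregranulosa and stromal marker scaling. *Gdf11*, a signal that promotes the trunk to tail transition, fell by 0.38 (FDR 0.00335). *Ring1*, of Polycomb complex PRC1, fell by 0.25 (FDR 0.034) and *Kdm6a*, a demethylase of the mark set by PRC2, fell by 0.20 (FDR 0.0358). The call of *Gdf11* held with any library left out, and those of *Ring1* and *Kdm6a* were lost in 4 of 8 such fits each. All 3 were lost when scaled to pregranulosa and stromal markers, where *Kdm6a* also turned sign. The calls of *Ring1* and *Kdm6a* were lost with germ cell marker scaling as well, and that of *Ring1* with DESeq2.

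The genes that rose included the 3 core subunits of PRC2, which silences Hox genes through histone H3 methylation. *Suz12* had 118, 139, 128 and 124 CPM in control libraries and 158, 182, 173 and 184 CPM in *Bmpr1a*-cKO libraries. These groups did not overlap (Log2FC 0.45, SE 0.07, FDR 0.00014). *Ezh2*, the methyltransferase, rose by 0.29 (FDR 0.00546) and *Eed* by 0.31 (FDR 0.019), in both cases with 1 *Bmpr1a*-cKO library within the control range. *Jarid2*, a PRC2 partner, rose by 0.18 (FDR 0.0287) and *Gmnn*, a replication inhibitor that also limits HOX function, by 0.35 (FDR 0.00722). All of these changes are below the fold threshold. Other Polycomb genes of the list, *Bmi1*, *Pcgf2*, *Cbx2*, *Phc1*, *Phc2* and *Rnf2*, did not pass (FDR 0.218 to 0.888). *Suz12*, *Ezh2* and *Gmnn* passed with any library left out, whereas *Eed* passed in 3 and *Jarid2* in 2 of 8 such fits. None of the 5 passed when scaled to germ cell markers, under which *Jarid2* turned sign. The call of *Jarid2* was also lost with upper-quartile or library size scaling and with no filter on low counts.

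**Figure D5:**
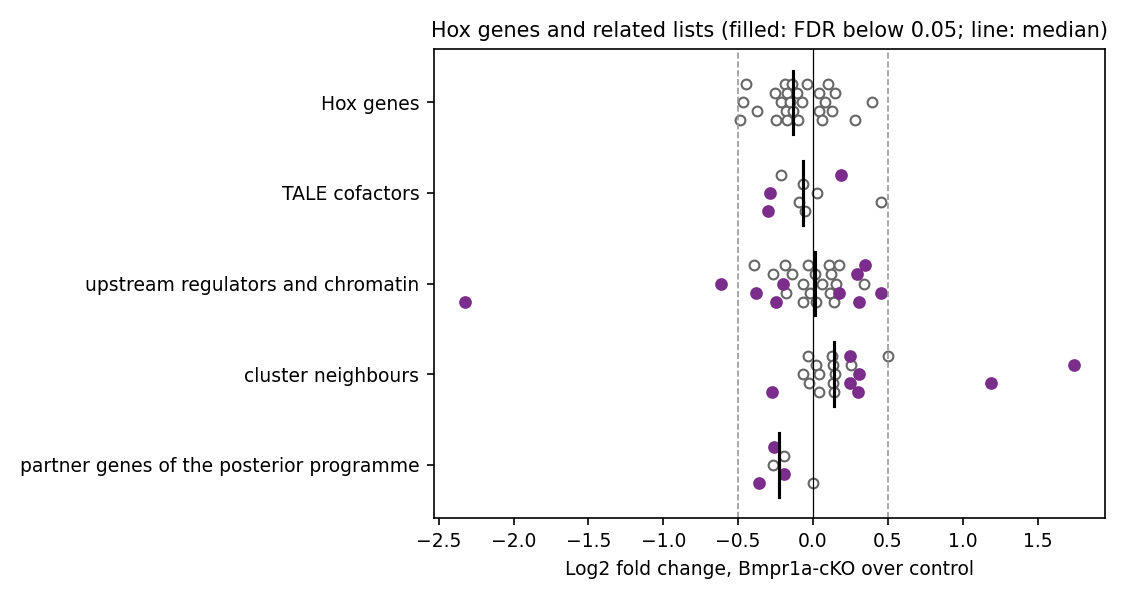
Log2FC of the tested genes of the Hox family and 4 related lists (points; filled at an FDR below 0.05), with the median of each list as a line and dashed lines at the fold threshold of 0.5. No Hox gene is filled, *Cdx2* lies at -2.33, and *Calcoco2* and *Snx10* lie at 1.75 and 1.19.

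The regions around the clusters were looked at through the 3 nearest protein-coding genes on each side. Of these 24 neighbours, 20 were tested, with 6 higher and 1 lower (median 0.14), against 17.3% and 12.5% of all genes. Of the 20, 2 were DEGs, both higher, against 6.11% of all genes. *Calcoco2*, an autophagy receptor on the *Hoxb13* side of *HoxB*, had 4.76, 5.48, 6.55 and 3.15 CPM in control libraries and 13.5, 15.5, 16.0 and 19.9 CPM in *Bmpr1a*-cKO libraries (Log2FC 1.75, SE 0.18, FDR 5.33e-06). *Snx10*, a sorting nexin beyond the anterior end of *HoxA*, had 7.06, 8.67, 8.42 and 7.501 CPM in control libraries and 15.2, 17.5, 20.3 and 18.7 CPM in *Bmpr1a*-cKO libraries (Log2FC 1.19, SE 0.11, FDR 2.69e-06). Neither overlapped between genotypes. The other calls were *Atp5g1* (0.31), *Snx11* (0.30), *Cbx5* (0.25) and *Lnpk* (0.25), which rose, and *Calcoco1*, which fell by 0.27 on the log2 scale. Of these 7 calls, those of *Calcoco2*, *Snx10* and *Atp5g1* held with any library left out, and *Calcoco2* and *Snx10* held under every other alternative as well.

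The even-skipped genes, which end *HoxA* and *HoxD* on their posterior sides, were both below the filter. *Evx2* was at 0 in all 8 libraries. *Evx1* had 16, 13, 10 and 6 counts in control libraries and 2, 3, 4 and 1 counts in *Bmpr1a*-cKO libraries. As CPM, *Bmpr1a*-cKO library 3 stood above the lowest control, and with no filter the Log2FC was -2.02 (SE 0.52, FDR 0.00555). *Evx1* was named after its values were seen.

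Of the 6 tested partner genes of posterior Hox genes in the urogenital ridge, 3 were lower and none higher (median -0.23), against 12.5% and 17.3% of all genes. *Emx2*, needed for gonad and kidney formation, fell by 0.26 (FDR 0.0202), *Wt1*, a regulator of the gonadal ridge, fell by 0.20 (FDR 0.0385), and *Osr1*, a marker of intermediate mesoderm, fell by 0.36 (FDR 0.048). With a library left out, *Emx2* passed in 7 of 8 fits and *Wt1* and *Osr1* in 2 each, and none passed under either marker scaling, where *Wt1* turned sign with pregranulosa and stromal markers. Markers of adjoining tissues, which carry Hox transcripts of their own, were checked too. Summed markers of mesonephros and ducts ran from 41.4 to 48.3 CPM across controls and from 28.9 to 46.1 CPM across mutants, and these ranges overlapped. Of 6 tested, 2 were lower at an FDR below 0.05 (*Ret* and *Gata3*), against 12.5% of all genes. *Pax2*, *Pax8*, *Lhx1* and *Cdh16* did not pass, and 1 of 9 was at no more than 3 counts in any library. Summed metanephric kidney markers ran from 16.98 to 24.1 CPM across controls and from 4.75 to 9.10 CPM across mutants, with both tested genes, *Cited1* and *Six2*, lower and 1 of 6 at no more than 3 counts. Most of that sum was *Cited1*, at 18.0 CPM in controls and 3.62 CPM in mutants on average. *Nphs1*, a podocyte gene of the same list and below the filter, went the other way, with 10 counts in controls and 45 in mutants, no overlap, and a Log2FC of 2.23 with no filter (SE 0.46, FDR 0.0006). It was named after its values were seen. *Eya1* and *Foxd1* of that list, both below the filter, overlapped between genotypes. *Eya1* had 46 counts in controls and 35 in mutants, and *Foxd1* had 14 and 18. In the muscle and limb list the 1 gene tested, *Tbx4*, was a DEG and higher (Log2FC 1.21, SE 0.17, FDR 7.24e-05). Of 3 Sertoli genes tested, 1 was lower, *Sox9* (Log2FC -0.44, SE 0.12, FDR 0.0135), against 12.5% of all genes. No gene passed among surface epithelium, adrenal, endothelial, erythroid or neural markers. The part of these tissues, of the lower pregranulosa markers and of the higher macrophage markers in the values of *Hoxa5*, *Hoxd1* and the other members was not tested.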

How the data were processed

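RNA-Seq reads from 8 libraries (strand-specific) had been trimmed with Trimmomatic 0.39 by the authors. They mapped the reads to mm10 and counted them per gene with STAR 2.5.2. The deposited counts were whole numbers per gene symbol without normalization. The annotation and strand setting of the counting are not given in the sources used here. The authors also deposited a table of CPM-like signal, whose gene names served as an alternative filter and whose values were only checked against the counts, from which they differed by 1 factor per library. In R 4.3.3, edgeR 4.0.16 was fitted to all counts (filterByExpr, TMM, quasi-likelihood F test, two-sided, Benjamini-Hochberg over 14249 genes). Alternatives used DESeq2 1.42.0 and limma 3.58.1. SE values and 95% intervals come from the fit. The procedure was tested on simulated data. Coordinates and lengths come from GENCODE vM21, promoters and microRNAs from RefSeq.

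Values per library are given for the 6 highest Hox genes by RPKM, for the 2 nearest the filter on each side and for some other genes, whether or not they passed. List genes are named at an FDR below 0.05, and some others are named beside them. The members and lists were chosen with earlier results of these data known. Nothing states which pools shared a litter, and p-values measure the spread between these pools. The values of 1 member are not reported here. Floors of 3 counts cover counting error only.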

Additional observations from a re-analysis of the deposited data

Results flagged for a closer look

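In 58 groups of 4 libraries (27 tested Hox genes, *Hoxd1* and *Haglr*, by genotype), 2 libraries stood apart from the other 3 by the gap test of Dixon, which flags about 1 in 20 groups by chance. *Hoxb4* was at 1.63 CPM in *Bmpr1a*-cKO library 2, where the other 3 were at 2.39 to 2.501 CPM. *Hoxb5* was at 2.33 CPM in control library 4, where the other 3 were at 1.48 to 1.59 CPM.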

How the results depend on the processing

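No Hox gene was a DEG with TMM, RLE or germ cell marker scaling, with DESeq2, limma-voom or the likelihood ratio test, with CPM above 1 in at least 4 libraries, or with the genes of the authors' table. The count was 1 with upper-quartile scaling and with library size only (*Hoxa5* in both), 1 with pregranulosa and stroma marker scaling (*Hoxc9*) and 1 with no filter on low counts (*Hoxd1*). With the replicate block it was 1 (*Hoxa5*), but same-numbered libraries were paired only by number. Their deviations correlated at 0.198, 0.161, 0.108 and -0.087. Control 3 and control 4 each correlated best with another number (0.182 and 0.150). At an FDR below 0.05 with any fold the count was 1 with RLE, upper-quartile or library size scaling, the likelihood ratio test, the CPM filter, the authors' genes and the replicate block (*Hoxa5* throughout, at an FDR of 0.033 to 0.04995, and 0.0411 with at least 10 counts in every library), 1 with no filter (*Hoxd1*) and 2 with pregranulosa and stroma marker scaling (*Hoxc9* and *Hoxd10*, higher). It was 0 without any 1 library. The cause of these differences was not tested.

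Cofactors and regulators numbered 2 DEGs, 13 with no fold threshold, 6 with pregranulosa and stroma marker scaling, and 1 to 2 with a library left out, where *Cyp26b1* was lost without control 1 or *Bmpr1a*-cKO 2. Neighbours and noncoding genes numbered 2 DEGs, 7 with no fold threshold, 5 with pregranulosa and stroma marker scaling, 4 with no filter, and 2 to 4 with a library left out (4 without control 4 or *Bmpr1a*-cKO 1, where *Evx1* and *Hnrnpa1* were added). The filter kept 24 to 27 Hox genes under the other filters and 26 to 27 with a library left out. With no filter, which was tried further after the data were seen, the Log2FC of *Hoxd1* stayed between -2.81 and -1.78 and that of *Haglr* between -2.37 and -1.69 with a library left out, each at an FDR below 0.05. Of the 23 cofactors, regulators, partners and neighbours called, 9 stayed called with any library left out and 14 did not.

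Shares moved with length: by RPKM *HoxA* held 9.30% and *HoxB* 9.40%, nearly level with each other. *Hoxd9* stood at 39.3 RPKM per coding length. With a library left out, the shares were 7.64% to 7.84% for *HoxA*, 10.1% to 10.5% for *HoxB*, 30.7% to 31.1% for *HoxC* and 50.7% to 51.3% for *HoxD*.

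Fold changes of single genes turned sign under scaling. With germ cell marker scaling these were *Hoxa2* (-0.12), *Hoxa6* (-0.16), *Hoxb4* (-0.075), *Hoxd3* (-0.17), *Hoxd4* (-0.17), *Hoxd10* (-0.085) and *Hoxd11* (-0.14). With pregranulosa and stroma marker scaling they were *Hoxa3* (0.0049), *Hoxa7* (0.043), *Hoxa9* (0.092), *Hoxb3* (0.11), *Hoxb9* (0.14), *Hoxc4* (0.085), *Hoxc5* (0.047), *Hoxc6* (0.072), *Hoxc8* (0.13), *Hoxc10* (0.042), *Hoxd8* (0.038) and *Hoxd9* (0.18). With library size only they were *Hoxd3* (-0.010) and *Hoxd4* (-0.015). With a library left out, *Hoxa6* ran from -0.13 to 0.39, *Hoxd11* from -0.12 to 0.21, *Hoxd3* from -0.054 to 0.11, *Hoxd4* from -0.038 to 0.092 and *Hoxd9* from -0.099 to 0.042. The other 8 tested genes kept their sign under every alternative. Depth limits genes of few counts most, and no Hox gene with a sum under 81 counts was tested.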
